A study of Mus musculus with 6 samples.

Results

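Interferon-induced genes, interferon regulatory factors (IRFs), STATs and interferon receptor chains were followed in mouse hippocampus. Every probe was taken that carried a single gene symbol beginning as the names of these families do (Ifi, Ifit, Ifitm, Ifnar, Ifngr, Oas, Irf, Stat, Gbp, Isg, Rsad2, Usp18 and Mx), and 48 of the 14860 genes measured by such probes were found, each with 1 probe. The animals were 63 weeks old, 3 of them wildtype and 3 transgenic, and the labels call the transgenic animals HGPS, which usually stands for Hutchinson-Gilford progeria, a disease of early ageing in which an altered lamin A is made. The sources used here do not give the transgene's promoter, the strain or the sex. A single array was hybridised per animal, and all values are log2 signal, so that a difference of 1 is a 2-fold change. Precision is limited by the small number of arrays. The hippocampal neuron genes Prox1, Camk2a and Snap25 had mean signals of 9.07, 12.32 and 13.61, so the defining neuronal genes were present.

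Type I interferons bind a receptor made of the Ifnar1 and Ifnar2 chains, and interferon gamma binds one made of Ifngr1 and Ifngr2. The kinases on these receptors activate STAT proteins. With IRF9, STAT dimers bind the interferon-stimulated response element (ISRE) in front of antiviral genes such as the Ifit, Oas and Mx genes, while STAT dimers alone bind the gamma-activated site (GAS), which drives guanylate-binding proteins (Gbp) and antigen presentation. In the brain these genes are known to respond in microglia, endothelium and neurons, and an interferon response of microglia has been described in ageing.

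No member passed a false discovery rate of 10% in limma, where 7 of 14996 probes (0.0467%) did. The lowest adjusted p among the 48 genes was 0.431. At an unadjusted p under 0.05, 9 members (18.8%) were higher in transgenic animals and 2 (4.17%) lower, against 5.81% and 4.8% of all tested probes. The groups did not overlap in 9 members that were higher and 3 that were lower, against 9.14% and 8.55% of all tested probes, and 0.1 is the smallest p that a two-sided exact permutation test allows with 3 animals in each group. A higher mean in transgenic animals was seen in 28 members (58.3%), against 49.9% of all tested probes. The median difference of the 48 genes was 0.03 (interquartile range -0.11 to 0.15), beside -2e-04 for all tested probes. For 46 members the 95% interval excluded a 2-fold difference in either direction, as it did for 98.3% of all tested probes. The exceptions were Ifitm3 and Ifit1. The signal of 23 members lay in the dimmest 33.3% of the tested probes.

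**Figure D1:**
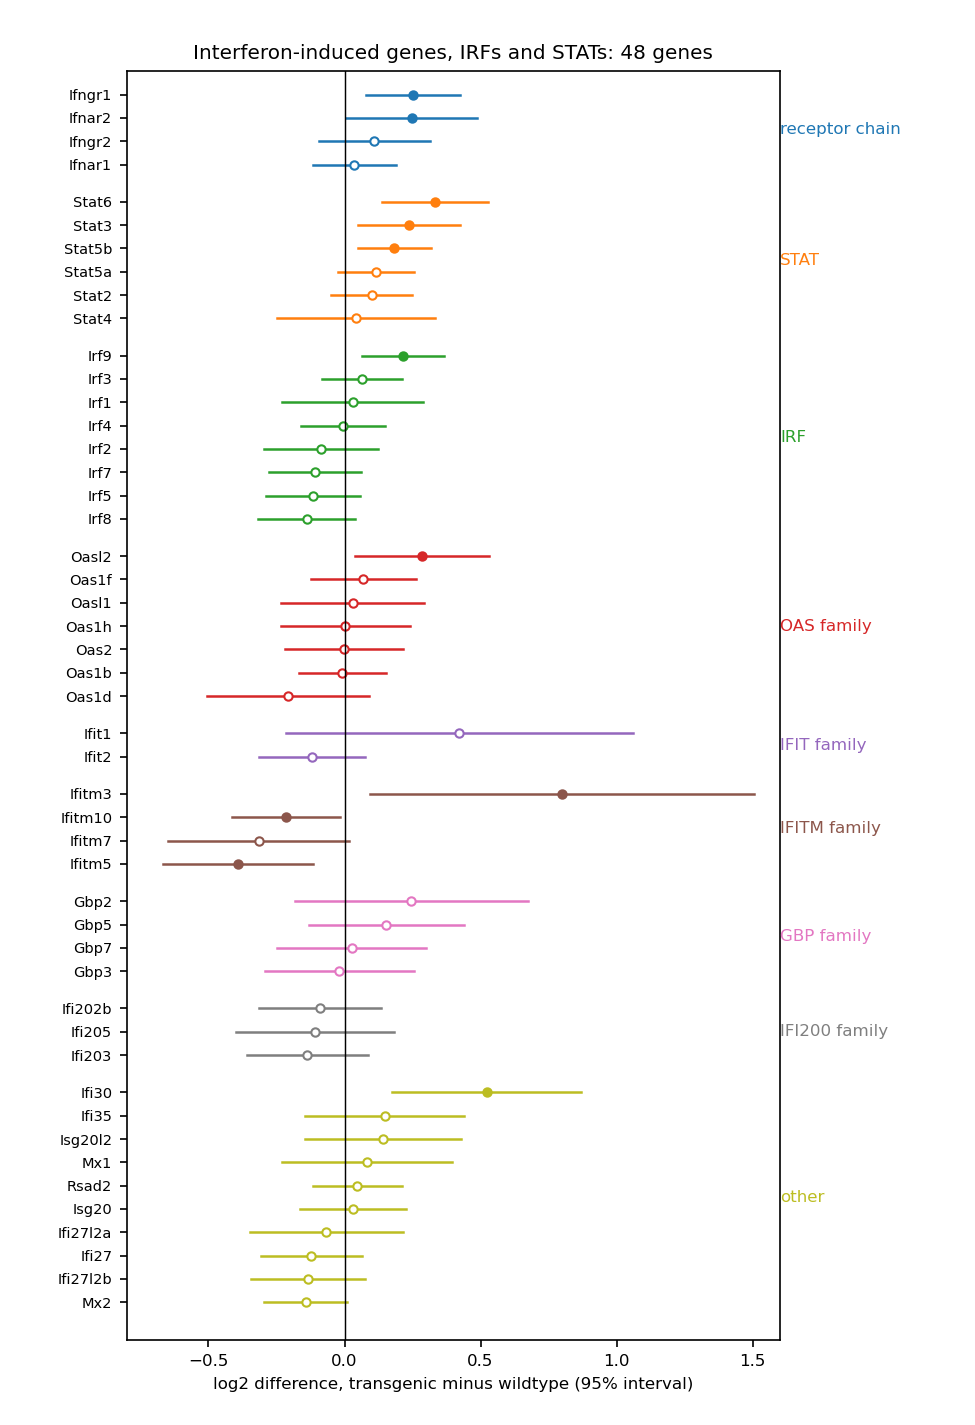
The log2 difference of transgenic minus wildtype hippocampus (x axis) for each of the 48 genes (y axis), ordered by family, with points at the estimate and lines at limma's 95% interval (n = 3 animals per group). Filled points mark the 11 genes with an unadjusted p under 0.05. All 10 receptor chains and STATs lie above 0, while the induced families lie on both sides.

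A pair of wildtype animals stood apart from the other arrays. The mean signal of Eif2s3y and Kdm5d, genes of the Y chromosome, was 8.41 in wildtype replicate 2 and 8.45 in wildtype replicate 3. It was 4.63 in wildtype replicate 1, and the 3 transgenic animals had 4.67 to 4.78. Genotype thus went together with this signal in 5 of 6 animals. The main results are also given with the signal as a covariate, and in that fit wildtype replicate 1 alone stands for wildtype animals of low signal. This animal lay above both other wildtype animals in 13 members (27.1%) and below both in 17 (35.4%), against 29.9% and 36.7% of all tested probes. With this covariate 2 members, Ifngr1 and Oasl1, were higher at an unadjusted p under 0.05 and none was lower, against 1.62% and 1.34% of all tested probes, and no member passed the false discovery rate (limma adjusted p = 1 for each member).

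All 4 receptor chains among the members had higher means in transgenic hippocampus, by 0.04 to 0.25. Of the receptor chains measured outside the members, Ifnlr1 was lower without overlap, by -0.17 ± 0.10 (limma adjusted p = 0.559). Il10rb was higher with overlap, by 0.15 ± 0.09 (limma adjusted p = 0.583). Ifngr1, the ligand-binding chain of the interferon gamma receptor, had signals of 8.01, 7.97 and 8.10 in the wildtype animals and 8.17, 8.33 and 8.34 in the transgenic animals. Every transgenic animal lay above every wildtype animal. The difference was 0.25 ± 0.07 (SE, n = 3 per group, limma adjusted p = 0.431), or 119% of wildtype on the linear scale, and it was 0.27 ± 0.11 with the Y-linked covariate. Its partner Ifngr2 had 10.89 ± 0.04 in wildtype and 11.00 ± 0.16 in transgenic animals (mean ± SD, n = 3), and these overlapped.

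For Ifnar2, the chain of the type I receptor that binds interferon with high affinity, the wildtype signals were 9.36, 9.004 and 9.14 and the transgenic signals 9.36, 9.35 and 9.53. Wildtype replicate 1 stood with the transgenic animals. The difference of 0.25 ± 0.10 (limma adjusted p = 0.467) was 0.06 with the covariate. Ifnar1, the other chain, had 8.85 ± 0.06 and 8.89 ± 0.06 (mean ± SD, n = 3), a difference of 0.04 with a 95% interval of -0.12 to 0.19. Its sign turned with the covariate (-0.04) and without both wildtype animals that carried the Y-linked signal (-0.04).

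All 6 STAT genes had higher means in transgenic hippocampus, with differences from 0.04 to 0.33. Stat6, which acts downstream of interleukin 4 and interleukin 13, had the smallest p of the 48 genes. It had signals of 7.46, 7.19 and 7.32 in wildtype and 7.73, 7.62 and 7.61 in transgenic animals. The groups were separate, and the difference was 0.33 ± 0.08 (limma adjusted p = 0.431), or 0.20 ± 0.10 with the covariate.

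Stat3, the effector of interleukin 6 family cytokines that acts in reactive astrocytes, had 8.89, 8.68 and 8.71 in wildtype and 8.93, 8.99 and 9.08 in transgenic animals. Wildtype replicate 1 was just below the lowest transgenic animal. The difference was 0.24 ± 0.08 (limma adjusted p = 0.432) and 0.11 with the covariate. Stat5b, which relays growth hormone signals, was tight within groups, with 7.75, 7.71 and 7.75 in wildtype and 7.87, 7.94 and 7.95 in transgenic animals. Its difference was 0.18 ± 0.06 (limma adjusted p = 0.431) and 0.17 with the covariate.

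Stat5a, its close relative, differed by 0.12 ± 0.06 without overlap (limma adjusted p = 0.520). Stat2, the partner of IRF9 in the type I response, differed by 0.10 ± 0.06 with overlap. Stat4, the mediator of interleukin 12 signals in lymphocytes, had a low signal of 4.94 and a difference of 0.04 (95% interval -0.25 to 0.33). The 10 receptor chains and STATs thus all lay above 0, against 49.9% of all tested probes, with a median of 0.15. The 10 genes did so also under a further quantile normalization, cyclic loess and median centring. With the covariate 9 of the 10 lay above 0, the exception being Ifnar1, and without wildtype replicate 3 also 9, the exception being Stat4. Of the 10 members at or above the median signal of all tested probes 9 lay above 0, against 19 of the 38 members below it. All receptor chains and STATs except Stat6 and Stat4 were among the brighter members, so family and signal level were not told apart.

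**Figure D2:**
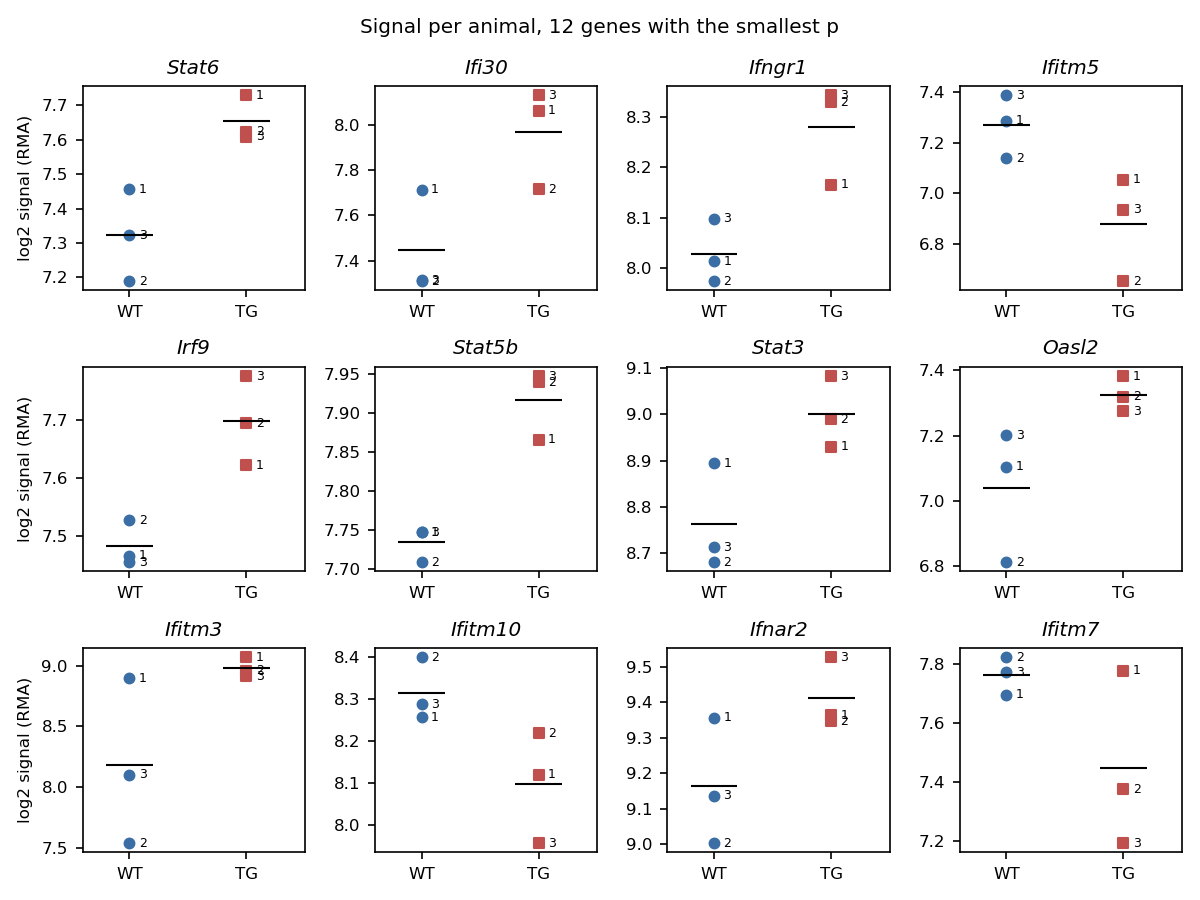
Log2 signal (y axis, scaled separately in each panel) of the 12 genes with the smallest p in the 3 wildtype (WT, circles) and 3 transgenic (TG, squares) animals, with replicate numbers beside the points and bars at the group means. In Ifitm3, Ifnar2 and Stat3 wildtype replicate 1 lies near the transgenic animals, while in Stat5b and Irf9 it lies with the other wildtype animals.

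The IRFs did not share a direction. A higher mean in transgenic hippocampus was seen in 3 of 8, with a median of -0.05, and in 4 of 8 after quantile normalization, cyclic loess or median centring, when Irf4 turned. Irf9, the DNA-binding subunit of the complex that acts on the ISRE, had 7.47, 7.53 and 7.46 in wildtype and 7.62, 7.70 and 7.78 in transgenic animals. The groups did not overlap, and the difference of 0.22 ± 0.06 (limma adjusted p = 0.431) was 0.23 with the covariate. Irf3, the factor activated by nucleic acid sensing, differed by 0.07 ± 0.06, and Irf1, a target of interferon gamma, by 0.03 ± 0.11.

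Irf7, the amplifier of type I interferon production and itself a strongly induced gene, had 6.16, 6.38 and 6.29 in wildtype and 6.19, 6.17 and 6.14 in transgenic animals. Its difference of -0.11 ± 0.07 (limma adjusted p = 0.594) was 0.003 with the covariate. Irf8, a factor that specifies microglia and other myeloid cells, differed by -0.14 ± 0.08 (limma adjusted p = 0.546) and by -0.02 with the covariate. Irf5, which is also used by myeloid cells, differed by -0.12 ± 0.07 and Irf2, a repressor of interferon targets, by -0.09 ± 0.09. Irf4, a lymphocyte factor with a signal of 5.83, differed by -0.0047 ± 0.07.

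The other 30 members are induced genes or genes that only share their names. A higher mean in transgenic hippocampus was seen in 15 of these 30, with a median of 0.00. The largest difference was that of Ifitm3, which restricts the entry of enveloped viruses and is also strongly expressed in brain vessels and meninges. Its signals were 8.90, 7.54 and 8.11 in wildtype and 9.07, 8.96 and 8.91 in transgenic animals. The transgenic animals were close together, wildtype replicate 1 was just below them, and wildtype replicates 2 and 3 were far below. The difference was 0.80 ± 0.30 (95% interval 0.09 to 1.505, limma adjusted p = 0.440), and it was 0.11 ± 0.21 with the covariate. Without wildtype replicate 1 it was 1.16 ± 0.16 and passed the false discovery rate (limma adjusted p = 0.0677), the only member to do so under the alternatives that were run. In that setting 103 of 14996 probes passed, against 7 with all 6 arrays. There both wildtype animals left carried the Y-linked signal and no transgenic animal did, so genotype and that signal cannot be told apart.

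Wildtype replicates 2 and 3, which had the lowest Ifitm3 signals, were also the lowest arrays for 3 lists of markers of other tissue. For 10 genes of meningeal and perivascular fibroblasts the mean level relative to the 6 arrays was 0.20, -0.53 and -0.58 in the wildtype animals and 0.26, 0.42 and 0.23 in the transgenic animals, and all 10 had higher means in the transgenic group. For 9 endothelial genes it was -0.02, -0.23 and -0.11 in wildtype and 0.07 to 0.19 in transgenic animals, again with all 9 higher. For 6 choroid plexus genes it was 0.51, -0.46 and -0.94 in wildtype and 0.55, -0.32 and 0.67 in transgenic animals, so that transgenic replicate 2 was low for these genes and not for Ifitm3. The deposited table gives no detection calls, and the lowest mean signal among these genes was 6.19. Their part in the differences of Ifitm3, of the receptor chains and of the STATs was not tested. In bulk tissue, fewer cells of a type and less RNA per cell cannot be told apart.

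The other 3 genes of the IFITM family had lower means in transgenic hippocampus, under each normalization tried. They carry the family name but are not known as core interferon targets. Ifitm5, which is known from bone-forming cells, had 7.29, 7.14 and 7.39 in wildtype and 7.05, 6.65 and 6.93 in transgenic animals. The groups were separate, and the difference was -0.39 ± 0.12 (limma adjusted p = 0.431) and -0.41 with the covariate. Ifitm10 differed by -0.22 ± 0.08 without overlap (limma adjusted p = 0.444) and Ifitm7 by -0.32 ± 0.14 with overlap (limma adjusted p = 0.483). In Ifitm7 transgenic replicate 1 had 7.78, within the wildtype range of 7.70 to 7.82.

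Ifi30, the lysosomal thiol reductase that prepares antigens for MHC class II, had 7.71, 7.31 and 7.32 in wildtype and 8.06, 7.72 and 8.13 in transgenic animals. Wildtype replicate 1 and transgenic replicate 2 nearly touched. The difference was 0.52 ± 0.15 (limma adjusted p = 0.431), or 144% of wildtype, and 0.26 with the covariate. Cd74, the class II chaperone, had 7.69, 6.77 and 7.46 in wildtype and 8.06, 8.34 and 8.20 in transgenic animals. The groups did not overlap, wildtype replicate 2 was the lowest animal and transgenic replicate 2 the highest. The difference of Cd74 was 0.89 ± 0.22 (limma adjusted p = 0.431) and 0.53 ± 0.26 with the covariate. Cd74 had the largest difference of 13 measured genes of interferon gamma GTPases and antigen presentation. Of these 13 genes 7 had a higher mean in transgenic animals, against 49.9% of all tested probes. Their median difference was 0.04, or -0.01 with the covariate. At an unadjusted p under 0.05, 2 of them were higher and 0 lower, against 5.81% and 4.8% of all tested probes.

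Of 7 OAS family genes, which make or resemble the enzymes that activate the RNA-degrading RNase L, 4 had a higher mean in transgenic animals, and under quantile normalization, cyclic loess or median centring 6 did. With the covariate all 7 did, with a median of 0.135 in place of 0.0024, and without wildtype replicate 1 or without transgenic replicate 2 only 2 did. Oasl2 had 7.10, 6.81 and 7.202 in wildtype and 7.38, 7.32 and 7.27 in transgenic animals. The groups were separate but wildtype replicate 3 came close. The difference was 0.29 ± 0.10 (limma adjusted p = 0.433) and 0.22 with the covariate. Oasl1 had 6.31 in wildtype replicate 1 and 6.48 to 6.72 in the other 5 animals, so that its difference of 0.03 became 0.26 with the covariate. The other 5 genes of the family differed by -0.21 (Oas1d) to 0.07 (Oas1f), and Oas2 had 6.17 in both groups.

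The typical antiviral genes did not share a direction. Ifit1, which binds viral RNA caps, had 6.23, 5.37 and 6.22 in wildtype and 6.66, 5.95 and 6.47 in transgenic animals. Wildtype replicate 2 was the lowest animal, and the groups overlapped. The difference of 0.42 ± 0.27 (95% interval -0.21 to 1.06, limma adjusted p = 0.586) was 0.14 with the covariate. Its neighbour Ifit2 differed by -0.12 ± 0.08. Rsad2, the viperin gene, had 6.74 ± 0.08 in wildtype and 6.79 ± 0.07 in transgenic animals (mean ± SD, n = 3).

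Mx1 had a low signal of 4.65 ± 0.16 and 4.74 ± 0.23, and Mx2 differed by -0.14 ± 0.06 (limma adjusted p = 0.487) without overlap at a signal near 4.84. Both encode dynamin-like antiviral GTPases, and many laboratory mouse strains carry defective alleles. All 3 genes of the IFI200 family of DNA-binding proteins had lower means in the transgenic group, Ifi203 by -0.14 ± 0.09, Ifi205 by -0.11 ± 0.12 and Ifi202b by -0.09 ± 0.10 (limma adjusted p = 0.607 to 0.757), at signals of 4.42 to 5.84. With the covariate Ifi203 turned to 0.004, and without wildtype replicate 2 Ifi205 turned to 0.02. Oas1b, at a signal of 4.80, differed by -0.01 ± 0.07. The remaining members (Ifi27, Ifi27l2a, Ifi27l2b, Ifi35, Isg20 and Isg20l2) differed by -0.13 to 0.15, all with overlap. Isg20l2 shares its name with Isg20 and acts in ribosome biogenesis.

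The guanylate-binding proteins, GTPases that attack vacuoles of intracellular pathogens, varied between animals more than between groups. Gbp2 had 6.54, 6.10 and 6.62 in wildtype and 6.74, 6.92 and 6.35 in transgenic animals, a difference of 0.25 ± 0.18 (limma adjusted p = 0.632). Gbp5 had 5.62, 5.69 and 6.02 in wildtype and 5.82, 6.08 and 5.89 in transgenic animals. Gbp7 and Gbp3 differed by 0.03 ± 0.12 and -0.02 ± 0.12, and Gbp3 turned above 0 after quantile normalization and cyclic loess. The groups overlapped in all 4 genes. In Gbp3, Gbp5 and Gbp7 wildtype replicate 3 and transgenic replicate 2 were the 2 highest arrays, a pair that was highest in 6.18% of all tested probes.

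Of 4 GBP probes that lie outside the 48 genes because they carry several symbols, 2 had the same pair highest. In another, shared by Gbp4, Gbp6 and Gbp8 to Gbp11, transgenic replicate 2 was the lowest array at 5.48. The probe shared by Gbp4, Gbp6, Gbp9 and Gbp11, 1 of those with the pair highest, had signals of 5.30, 5.26 and 7.30 in wildtype and 5.63, 6.82 and 5.62 in transgenic animals, so that 2 animals, 1 of each genotype, stood more than 1 log2 unit above the other 4. Of 13 measured genes of interferon gamma GTPases and antigen presentation, 5 had the same pair highest, namely Tgtp1, Gvin1, Psmb8, Psmb9 and Cd274. These animals were singled out after the values were seen, and the pattern is given as a description. The T and NK cell genes had a mean level relative to the arrays of -0.03 in wildtype replicate 3 and -0.01 in transgenic replicate 2, within the range of -0.06 to 0.08 of all 6 arrays, and the microglial genes had the 2 highest levels in them, at 0.06 and 0.04.

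**Figure D3:**
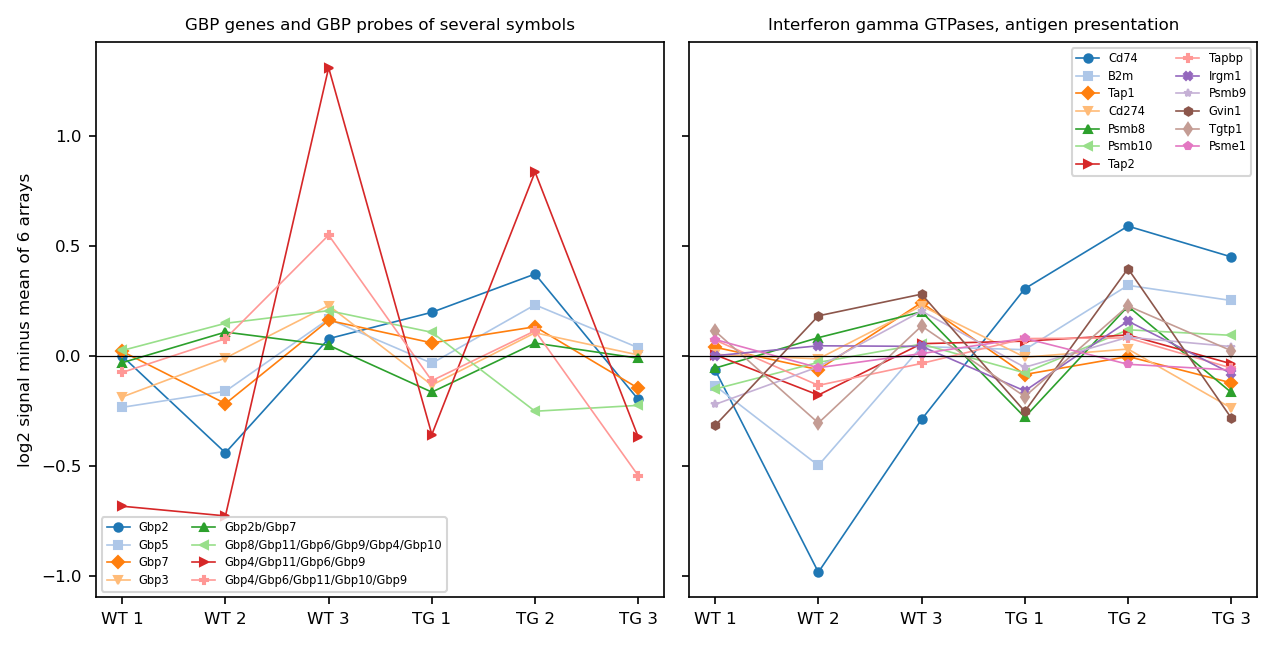
Log2 signal minus the mean of the 6 arrays (y axis) in each animal (x axis, WT wildtype, TG transgenic) for 4 GBP genes and 4 GBP probes with several symbols (left) and for 13 genes of interferon gamma GTPases and antigen presentation (right). Wildtype replicate 3 and transgenic replicate 2 are the highest arrays in Gbp3, Gbp5 and Gbp7 and in the probe shared by Gbp4, Gbp6, Gbp9 and Gbp11, while Cd74 and B2m are lowest in wildtype replicate 2.

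The promoters of the members were read from RefSeq windows of GRCm38.p6 that run from 250 bases before to 50 bases after the start, and 40 of the 48 genes had at least 1 window. The core of the ISRE, TTTC followed by any 2 bases and TTTC, was searched on both strands, and the GAS as TTCNNNGAA, which reads alike on both. An ISRE core was in a window of 12 of the 40 genes (30%), against 3.99% of all 27025 genes in the table, and a GAS in 12 (30%), against 9.55%. The windows of 4 of the 12 members with an ISRE core are printed with every match in capitals.
Ifitm3 (chr7:141010695-141010994, minus strand): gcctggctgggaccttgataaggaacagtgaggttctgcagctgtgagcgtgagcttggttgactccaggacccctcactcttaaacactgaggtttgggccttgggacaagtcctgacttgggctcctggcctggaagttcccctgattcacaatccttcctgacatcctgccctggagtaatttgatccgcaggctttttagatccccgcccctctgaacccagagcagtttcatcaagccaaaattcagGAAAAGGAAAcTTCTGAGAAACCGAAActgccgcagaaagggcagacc
Ifit1 (chr19:34640639-34640938, plus strand): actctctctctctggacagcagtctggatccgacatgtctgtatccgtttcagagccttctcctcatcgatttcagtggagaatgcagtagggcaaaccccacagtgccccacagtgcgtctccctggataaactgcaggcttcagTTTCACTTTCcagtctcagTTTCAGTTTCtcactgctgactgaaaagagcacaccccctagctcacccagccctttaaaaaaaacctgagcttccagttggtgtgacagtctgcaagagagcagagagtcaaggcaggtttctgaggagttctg
Gbp5 (chr3:142496684-142496983, plus strand): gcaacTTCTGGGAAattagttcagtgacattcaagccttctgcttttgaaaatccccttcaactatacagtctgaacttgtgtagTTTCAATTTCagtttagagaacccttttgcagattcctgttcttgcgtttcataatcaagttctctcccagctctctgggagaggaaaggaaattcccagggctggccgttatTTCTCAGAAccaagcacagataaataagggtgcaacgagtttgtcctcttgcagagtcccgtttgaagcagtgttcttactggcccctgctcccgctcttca
Gbp7 (chr3:142530086-142530385, plus strand): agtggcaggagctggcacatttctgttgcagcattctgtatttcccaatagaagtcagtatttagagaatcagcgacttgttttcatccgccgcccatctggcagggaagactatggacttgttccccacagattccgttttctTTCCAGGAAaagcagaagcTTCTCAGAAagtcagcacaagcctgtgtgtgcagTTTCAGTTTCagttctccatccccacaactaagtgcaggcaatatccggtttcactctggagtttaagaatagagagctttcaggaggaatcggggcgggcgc

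In Ifitm3 the ISRE cores begin 2 and 19 bases after the start and a GAS lies between and overlaps the later core. In Ifit1 a pair of ISRE cores begins at -104 and -85. Gbp5 holds an ISRE core at -165 with GAS matches at -245 and -52, and Gbp7 an ISRE core at -53 with GAS matches at -106 and -87. All 4 GBP genes held an ISRE core, and none of the 4 OAS genes with a window did. The 12 members with an ISRE core had a median difference of 0.045 (range -0.14 to 0.80), and the 28 with a window and no core had one of 0.05 (range -0.39 to 0.52). Of the 9 members that were higher at an unadjusted p under 0.05, 1, Ifitm3, held the core. A match is a description of the letters and not a measured site.

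Of 110 other genes of interferon signalling on 5 lists, 78 were measured and none passed the false discovery rate. At an unadjusted p under 0.05, 9 were higher and 2 lower, against 5.81% and 4.8% of all tested probes, and the median was 0.02. Among 9 measured ligand genes the interferon gamma gene Ifng had 6.82, 6.98 and 6.87 in wildtype and 6.56, 6.76 and 6.47 in transgenic animals. The groups were separate in the direction opposite to its receptor chain Ifngr1, with a difference of -0.29 ± 0.09 (limma adjusted p = 0.431). The mean signal of Ifng, 6.74, lay in the dimmest 33.3% of the tested probes, and there are no detection calls. The 8 other ligand genes, Ifnb1 at 0.11 ± 0.18 among them, had an unadjusted p above 0.05. Of 11 receptor kinases, other chains and brakes none had an unadjusted p under 0.05, and the receptor kinase genes Jak1, Jak2 and Tyk2 differed by -0.01 ± 0.06, 0.01 ± 0.07 and -0.03 ± 0.06.

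Of 20 sensors and adaptors of nucleic acid sensing, 3 were higher and 1 lower at an unadjusted p under 0.05. Mavs, the mitochondrial adaptor of RNA sensing, had 8.25, 8.02 and 8.07 in wildtype and 8.36, 8.31 and 8.52 in transgenic animals, a difference of 0.28 ± 0.09 without overlap (limma adjusted p = 0.431) that was 0.15 with the covariate. Tlr7, the endosomal receptor of single-stranded RNA, differed by 0.37 ± 0.11 (limma adjusted p = 0.431), without overlap. Aim2, the inflammasome sensor of DNA and a relative of the IFI200 proteins, had 7.10, 7.15 and 6.9999 in wildtype and 6.88, 6.55 and 6.10 in transgenic animals. The transgenic animals were spread out below the wildtype ones, with a difference of -0.57 ± 0.18 (limma adjusted p = 0.431). The mean signals of Tlr7 and Aim2, 6.85 and 6.80, lay in the dimmest 33.3% of the tested probes.

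Of 25 other induced effectors, 4 were higher at an unadjusted p under 0.05 and none lower. The chemokine gene Ccl5 had 5.33, 5.15 and 5.34 in wildtype and 5.53, 5.72 and 5.53 in transgenic animals, a difference of 0.32 ± 0.08 (limma adjusted p = 0.431). The chemokine gene Cxcl10 also did not overlap between groups, and had 6.41, 6.47 and 6.69 in wildtype and 6.85, 6.77 and 6.96 in transgenic animals, a difference of 0.34 ± 0.09 (limma adjusted p = 0.431) that was 0.45 with the Y-linked covariate. The mean signals of Ccl5 and Cxcl10, 5.43 and 6.69, lay in the dimmest 33.3% of the tested probes. Lgals3bp, a secreted glycoprotein induced by interferon, had 8.15, 7.88 and 7.80 in wildtype and 8.57, 8.14 and 8.57 in transgenic animals. Transgenic replicate 2 lay below wildtype replicate 1, and the difference was 0.48 ± 0.14 (limma adjusted p = 0.431), or 0.27 with the covariate. Bst2, the tetherin gene and a common marker of the type I response, had 7.26 in both groups.

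**Figure D4:**
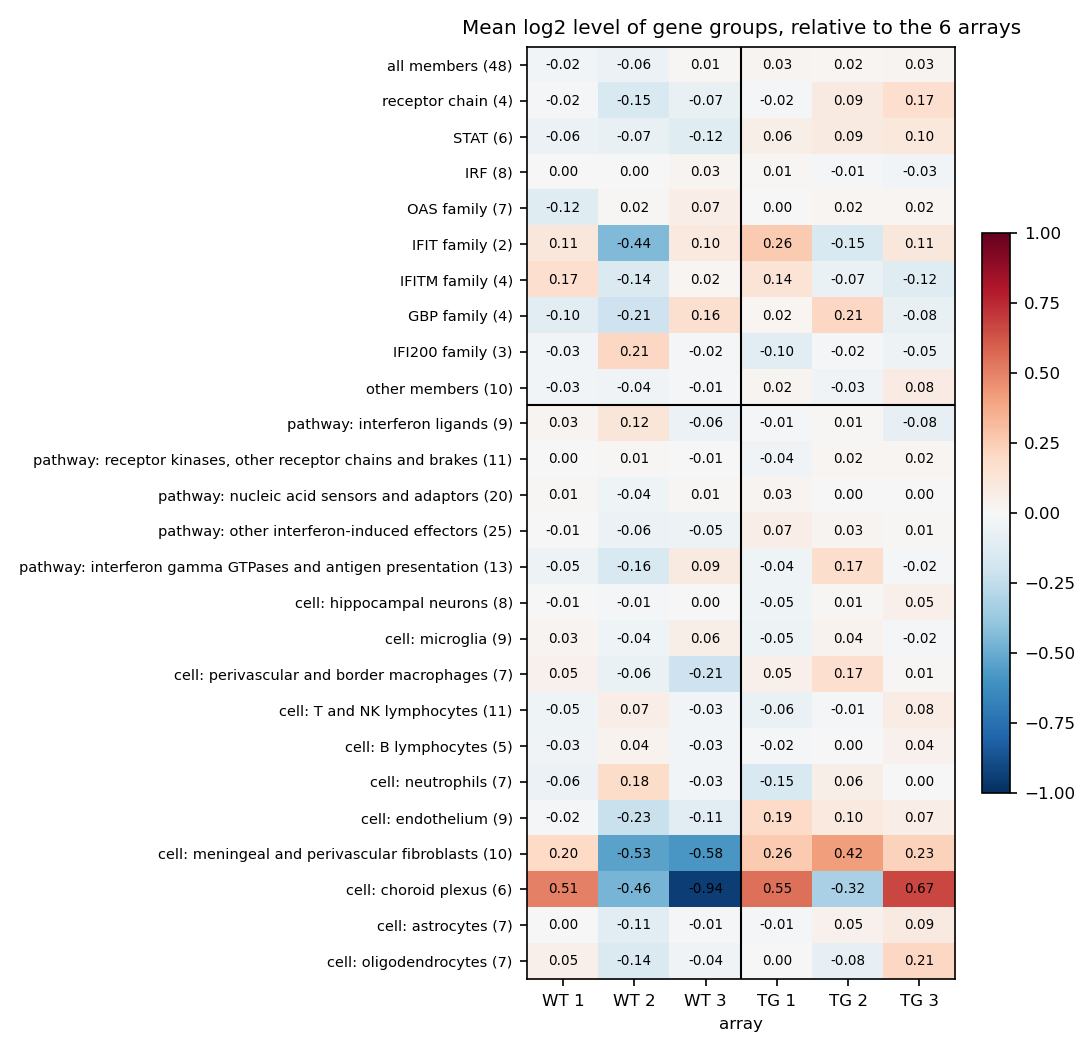
Mean log2 level of each gene group relative to the mean of the 6 arrays (colour and printed value), with the number of measured genes in parentheses, for the members by family (above the line), the pathway lists and the cell type marker lists (below it). Columns are the 3 wildtype (WT) and 3 transgenic (TG) animals. The STAT row separates the groups, as do the rows of all members, other interferon-induced effectors, endothelium and fibroblasts. The GBP row is highest in WT 3 and TG 2, and the fibroblast row is low in WT 2 and WT 3 alone.

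The lists of immune cell markers other than border macrophages had medians close to 0. The 9 microglial genes had a median difference of -0.04 and levels relative to the arrays of -0.04 to 0.06 in wildtype and -0.05 to 0.04 in transgenic animals. The medians were 0.02 for 11 T and NK cell genes, 0.00 for 5 B cell genes and -0.07 for 7 neutrophil genes. Cx3cr1 of the microglial list, Ncr1 of the T and NK list, Ms4a1 of the B cell list and Ngp of the neutrophil list were lower without overlap, by -0.14, -0.19, -0.17 and -0.22. This was so for 8.55% of all tested probes. Of 7 genes of perivascular and border macrophages Lyve1, Cbr2 and Pf4 were higher without overlap and at an unadjusted p under 0.05. Of all tested probes 9.14% were higher without overlap and 5.81% were higher at that p. With overlap, F13a1 and Mrc1 differed by 0.27 and 0.04, and Clec4n and Cd163 were lower, by -0.19 and -0.12. The median over the 7 genes was 0.24, or 0.04 with the covariate. The astrocyte and oligodendrocyte genes both had a median of 0.08.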

How the data were processed

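Hippocampal RNA of 6 mice was amplified and labelled by Affymetrix's procedure, per the labels' protocols, and each animal had 1 array. The authors deposited a table of log2 values, and the submitters' processing notes name RMA and mm8. The version of RMA and any filter used are not stated there. The platform annotation in GEO may be out of date and gave 1 symbol for 14996 of 23332 probes, several for 1019 and none here for 7317. Of these, 14941 were found by gene identifier in RefSeq's GRCm38.p6 table, which changed 0 names.

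Groups were compared over the 14996 probes with limma 3.58.1 in R 4.3.3 (linear fits with eBayes, no covariate, two-sided, Benjamini-Hochberg adjustment), at the 10% rate that the series states, and the script was tested on simulated data. Errors of differences are moderated standard errors. The Y-linked covariate is the mean of Eif2s3y and Kdm5d. Members, lists and covariate were chosen with earlier results of these data known. Named genes were the 12 members with the smallest p, all receptor chains, STATs and IRFs, the 4 highest and 4 lowest signals, the largest difference per family and 8 pathway genes with the smallest p, while others were named after their values were seen. Alternatives were the replicate block, the covariate, other normalizations, a filter on dim probes, other variance models, array weights, the whole probe table, averaging a gene's probes, other thresholds and leaving out arrays. Same-numbered arrays deviated together with r = 0.23, 0.149 and 0.023, so the numbers were not taken as pairs.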

Additional observations from a re-analysis of the deposited data

How the results depend on the processing

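No member passed the false discovery rate of 10% under the replicate block, the covariate, a further quantile normalization, cyclic loess, median centring, the filter on dim probes, either other variance model, array weights, all probes or the mean of a gene's probes, nor at rates of 5% or 20% or with a 2-fold limit. Leaving out each array in turn gave 0 to 1 members, the 1 being Ifitm3 without wildtype replicate 1, 5 to 9 higher and 1 to 5 lower members at an unadjusted p under 0.05, and medians of 7e-04 to 0.06. Over all tested probes the same settings gave 0 to 103 called, 3.49% to 7.01% higher and 3.09% to 5.6% lower, the 103 without wildtype replicate 1. Without that animal, genotype and the Y-linked signal coincide in all animals left and cannot be told apart. The count of higher members was 2 with the Y-linked covariate, and lower members numbered 0 with the covariate, 4 with array weights and 1 with all probes, against 9 and 2. Of all tested probes, 1.62% were higher with the covariate, and 1.34%, 5.47% and 4.68% were lower in these 3 settings. The median of 0.03 became 0.0755 with the covariate, 0.0766 without wildtype replicates 2 and 3, where a single wildtype array is left and no test was made, 0.0709 with quantile normalization and 0.0995 over the 25 members outside the dimmest 33.3% of the probes. Over all tested probes the median was -2e-04 in the main fit and 0.0109 with the covariate. It was 0.0109 without wildtype replicates 2 and 3, 0.0051 with quantile normalization and 0.0204 over the probes that the filter kept. The causes were not tested, except that the filter leaves fewer genes. With the replicate block 10 members were higher and 2 lower, with a median of 0.03, against 6.37% and 5.68% of all tested probes. The wildtype and transgenic animals share only a number. Of the 31 named members 22 kept their sign under every alternative. Of the named members 12 were chosen for the smallest p in these same data, which favours a kept sign. The replicate block, the other variance models, the whole probe table and averaging a gene's probes cannot change a member's difference. The count of kept signs is thus a description and no test. Of the 11 members with an unadjusted p under 0.05, 6 to 11 kept it when 1 array was left out, the 6 without wildtype replicate 2.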

Other observations

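Probes with several symbols, which lie outside the 48 genes, gave no called difference. The probe of Ifit3 and Ifit3b had 4.19, 4.42 and 4.59 in wildtype and 4.69, 4.20 and 4.65 in transgenic animals, which overlapped. The probe of Oas1a and Oas1g differed by -0.07, and that of Oas3 and Oit3 by -0.09. The probe of Ifitm1 and Gm7676 had its highest signal, 6.53, in wildtype replicate 2, the animal in which Ifitm3 was lowest at 7.54, and its lowest, 5.49, in wildtype replicate 1, where Ifitm3 had 8.90.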
